A study of Mus musculus with 6 samples.

Results

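EphA receptors and their ephrin-A ligands were examined in the olfactory mucosa of mice with 1 nostril closed. The set held 4 receptor genes (Epha3, Epha4, Epha5 and Epha7) and 5 ligand genes (Efna1, Efna2, Efna3, Efna4 and Efna5), chosen by gene symbol from the 24315 rows of the expression table, and all 9 had a row. The tissue was whole olfactory mucosa of wild type C57BL/6 mice at postnatal day 11, from 3 mice that each gave 1 library from the closed and 1 from the open nostril. Both sides shared strain, genotype and age, and unoperated mice were not analysed here, so a lower closed value cannot be told apart from a higher open value. Neither the age at closure nor its length is given in the sources used. The comparison asks which transcripts differ when odor-laden air is kept from one side of the nose.

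EphA receptors are receptor tyrosine kinases, and ephrin-A ligands are held in the membrane of neighbouring cells by a lipid anchor. Contact between cells bearing the receptor and the ligand usually repels a growing axon, and signalling also runs backwards into the ligand-bearing cell. In the mouse olfactory system, axons of neurons that express the same odorant receptor gather in the same glomeruli of the olfactory bulb. EphA5 and ephrin-A5 are known there as molecules that olfactory axons carry at differing levels according to the receptor they express and to neuronal activity, together with the adhesion molecules Kirrel2 and Kirrel3.

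Expression is given in FPKM, fragment numbers normalised by the authors for transcript length and sequencing depth, so levels of different genes can be set side by side per length. The libraries held 24958172 to 43584803 reads, of which 93.28% to 96.99% were aligned, and closed replicate 1 was the shallowest. That library also had 11.3% of its FPKM in small RNA rows, against 3.47% to 5.27% in the others. Markers of mature olfactory neurons (8 genes, among them Omp, the olfactory marker protein), immature neurons, basal cells, supporting cells, glia, endothelium, fibroblasts and macrophages were above 0 in every library. Bulk values cannot tell fewer cells of a type apart from less RNA per cell. Differences were tested with limma on log2(FPKM + 1), closed minus open, over the 14788 rows whose mean reached 1 FPKM, and called at a Benjamini-Hochberg adjusted p under 0.05. All 9 genes passed that floor.

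The 2 receptors with the higher levels, Epha5 and Epha7, measured lower on the closed side in each mouse. Epha5 stood at 1.94, 2.54 and 2.35 FPKM in the closed libraries of mice 1, 2 and 3, whereas the open libraries gave 3.21, 3.49 and 3.83 FPKM. Every closed library lay below every open one, and the closed value was lower than its own mouse's open value by 39.5%, 27.3% and 38.6%. The means were 2.28 ± 0.303 FPKM closed and 3.51 ± 0.310 FPKM open (SD, n = 3 libraries each), a log2 change of -0.46 with a standard error (SE) of 0.13 and a 95% interval from -0.77 to -0.15. The unadjusted limma p was 0.00839 and the adjusted p 0.99999, so the difference did not pass the test over all rows.

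Epha7, a receptor that also has short forms without the kinase, stood at 1.77, 1.88 and 2.04 FPKM in the closed and 2.87, 3.32 and 3.56 FPKM in the open libraries of mice 1, 2 and 3. The closed values sat close together, with an SD of 0.135 FPKM, below all open values, and were lower by 38.2%, 43.2% and 42.7% within the mice. The means were 1.90 ± 0.135 FPKM closed and 3.25 ± 0.350 FPKM open (SD, n = 3 each), a log2 change of -0.55 (SE 0.13, 95% interval -0.85 to -0.25). Its unadjusted limma p was 0.00278 and its adjusted p 0.99999. FPKM per gene do not separate the full-length from the short forms.

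The other receptors overlapped between the sides. Epha3 stood at 1.07, 1.71 and 1.76 FPKM in the closed and 1.37, 1.75 and 2.27 FPKM in the open libraries of mice 1, 2 and 3, lower on the closed side in each mouse but by only 2.60% in mouse 2. Its log2 change was -0.16 (SE 0.18, 95% interval -0.58 to 0.26), and with single libraries left out it ranged from -0.27 without open replicate 1 to -0.023 without closed replicate 1, with -0.038 without open replicate 3. Epha4, a receptor that binds both ephrin-A and ephrin-B ligands, stood at 1.05, 1.69 and 1.44 FPKM closed and 1.28, 1.68 and 1.59 FPKM open, lower in mice 1 and 3 and 1.06% higher in mouse 2. Its log2 change was -0.074 (SE 0.16, interval -0.44 to 0.29) and turned to 0.033 without closed replicate 1. For both genes the mouse 1 libraries were the lowest of their side.

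**Figure D1:**
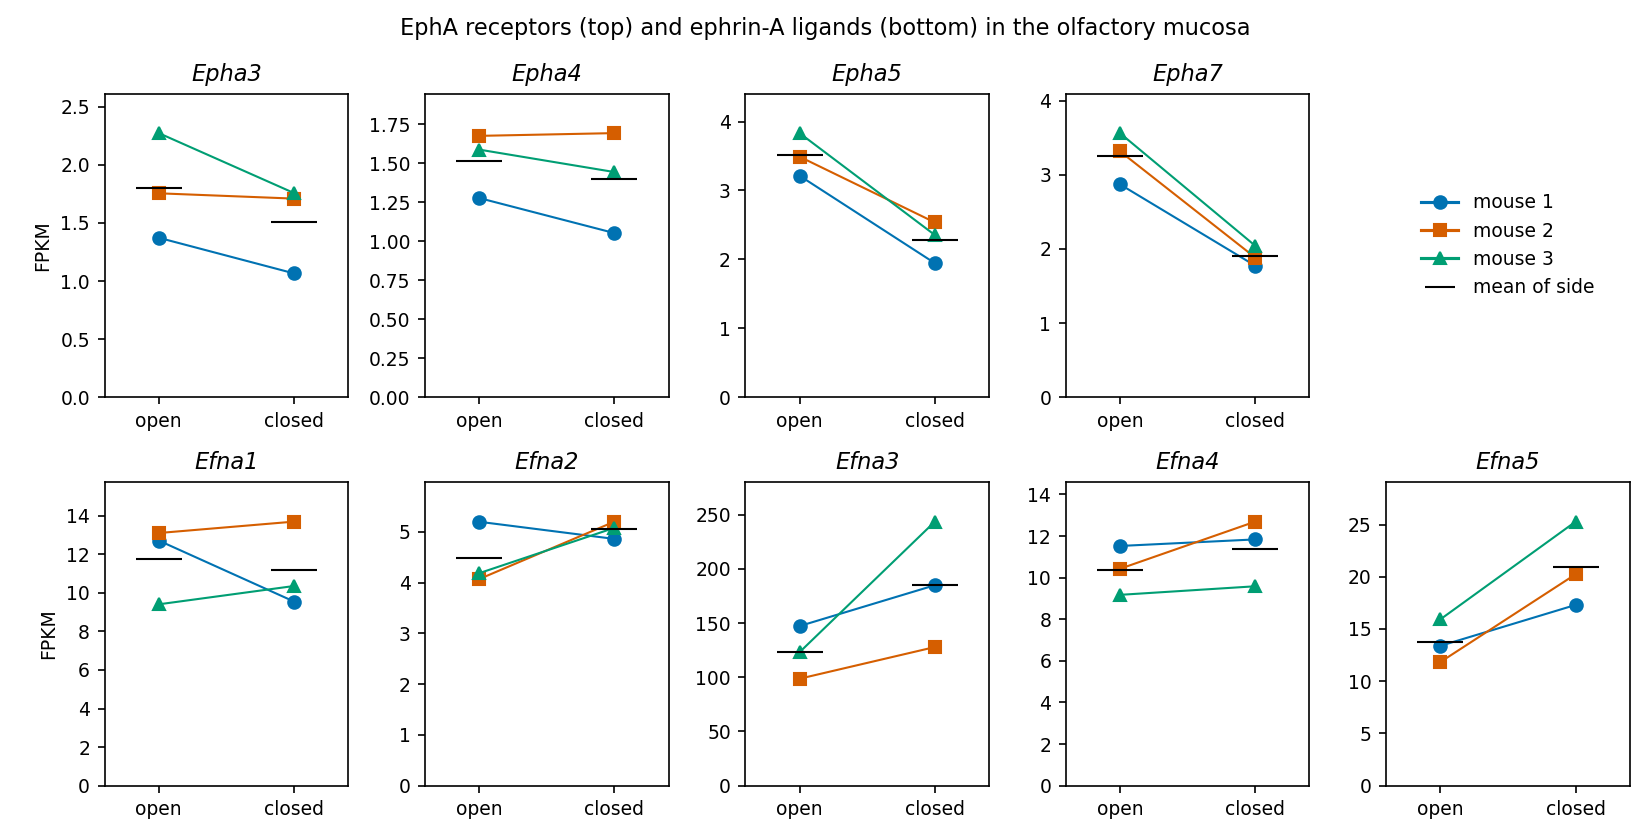
FPKM of each gene on the open and the closed side (vertical axes differ between panels and start at 0), with 1 line per mouse and a black bar at the mean of each side. Epha5 and Epha7 run downward and Efna3 and Efna5 upward from open to closed in all 3 mice, and the sides do not overlap for Epha5, Epha7 and Efna5.

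Among the ligands, Efna5 measured higher on the closed side in each mouse. It stood at 17.3, 20.2 and 25.3 FPKM in the closed libraries of mice 1, 2 and 3, whereas the open libraries gave 13.4, 11.8 and 15.9 FPKM. The lowest closed value was above the highest open value, and the closed value exceeded its own mouse's open value by 29.3%, 71.0% and 58.8%. The means were 20.9 ± 4.03 FPKM closed and 13.7 ± 2.06 FPKM open (SD, n = 3 each), a log2 change of 0.57 (SE 0.16, 95% interval 0.20 to 0.94) with an unadjusted limma p of 0.00763 and an adjusted p of 0.99999. With the mouse as a block the SE was 0.11, the unadjusted p 0.00245 and the adjusted p 0.928, again not past the test.

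Efna3 was by far the most abundant of the 9 genes. Its closed libraries stood at 184.9, 127.9 and 243.6 FPKM against 147.2, 98.7 and 123.1 FPKM in its open libraries, for mice 1, 2 and 3. It was higher on the closed side in each mouse, by 25.6%, 29.6% and 97.9%, yet the sides overlapped, since the closed library of mouse 2 lay below the open library of mouse 1. The means were 185.5 ± 57.9 FPKM closed and 123.0 ± 24.3 FPKM open (SD, n = 3 each), a log2 change of 0.56 (SE 0.24, 95% interval -0.0016 to 1.12). The change was 0.34 without closed replicate 3 and 0.80 without closed replicate 2. The unadjusted limma p was 0.0505 and, with the mouse as a block, 0.0130, while the adjusted p was 0.99999 in both. In the GRCm38 annotation the antisense gene Gm15998 shares 344 exonic bases with Efna3, and 4731419I09Rik shares 168 with Efna4. No source used here gives the strand setting, so reads of such pairs may not have been told apart.

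The remaining ligands overlapped between the sides. Efna1, an ephrin also made by blood vessels, stood at 9.55, 13.7 and 10.4 FPKM closed and 12.7, 13.1 and 9.41 FPKM open in mice 1, 2 and 3. It was lower on the closed side in mouse 1 and higher in the others, with a log2 change of -0.064 (SE 0.17, 95% interval -0.46 to 0.33). Efna2, a ligand of olfactory axons and of the visual midbrain, stood at 4.86, 5.20 and 5.08 FPKM closed and 5.20, 4.07 and 4.19 FPKM open. Its log2 change was 0.15 (SE 0.13, interval -0.14 to 0.44), with mouse 1 opposite to the others, and ranged from 0.093 without open replicate 2 to 0.24 without open replicate 1. Efna4 stood at 11.8, 12.7 and 9.58 FPKM closed and 11.5, 10.4 and 9.17 FPKM open. Efna4 was slightly higher on the closed side in all 3 mice, by 2.73%, 21.8% and 4.50%, with a log2 change of 0.12 (SE 0.14, interval -0.20 to 0.44). That change was 0.041 without closed replicate 2, 0.040 without open replicate 3, 0.19 without open replicate 1 and 0.23 without closed replicate 3.

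Levels over all 6 libraries ran from Efna3 (mean 154.2 FPKM, range 98.7 to 243.6) through Efna5 (17.3), Efna1 (11.5), Efna4 (10.9) and Efna2 (4.77) down to Epha5 (2.89), Epha7 (2.57), Epha3 (1.66) and Epha4 (1.45). The ranges did not overlap between Efna3 and Efna5, between Efna4 and Efna2, or between Efna2 and Epha5. They overlapped among Efna5, Efna1 and Efna4 as neighbours in the order, and between each neighbouring pair of receptors. Every ligand thus lay above every receptor in mean level. Efna3 lay at the 96.3 percentile of the rows tested and Epha4 at the 5.06 percentile, so the receptors were near the floor, where log2(FPKM + 1) understates a change.

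None of the 9 genes was called, where 0.0473% of all rows tested were called in either direction (6 lower and 1 higher) and 0.0338% with the mouse as a block. At an unadjusted limma p under 0.05 stood 2 of 4 receptors, both lower, and 1 of 5 ligands, which was higher, beside 0.866% of all rows lower and 0.588% higher. The same count for the members with the mouse as a block was 2 receptors lower and 2 ligands higher (Efna3 and Efna5), beside 2.37% of all rows in either direction. Ordered by p among the 14788 rows, Epha7 was number 41, Efna5 number 58 and Epha5 number 61. With the mouse as a block they were numbers 48, 39 and 92, at unadjusted limma p of 0.00426, 0.00245 and 0.00980. Sides did not overlap for 2 receptors that were lower, beside 2.09% of all rows, and for 1 ligand that was higher, beside 1.28%. For these 3 genes the two-sided exact permutation test on FPKM gave p = 0.1, the smallest that 3 libraries against 3 allow. The lack of overlap fixed that value, so it adds no evidence. The permutation test treated the libraries as independent and ignored their pairing by mouse. In 3 of 3 mice, 3 receptors were lower (9.18% of all rows) and 3 ligands higher (7.41% of all rows).

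**Figure D2:**
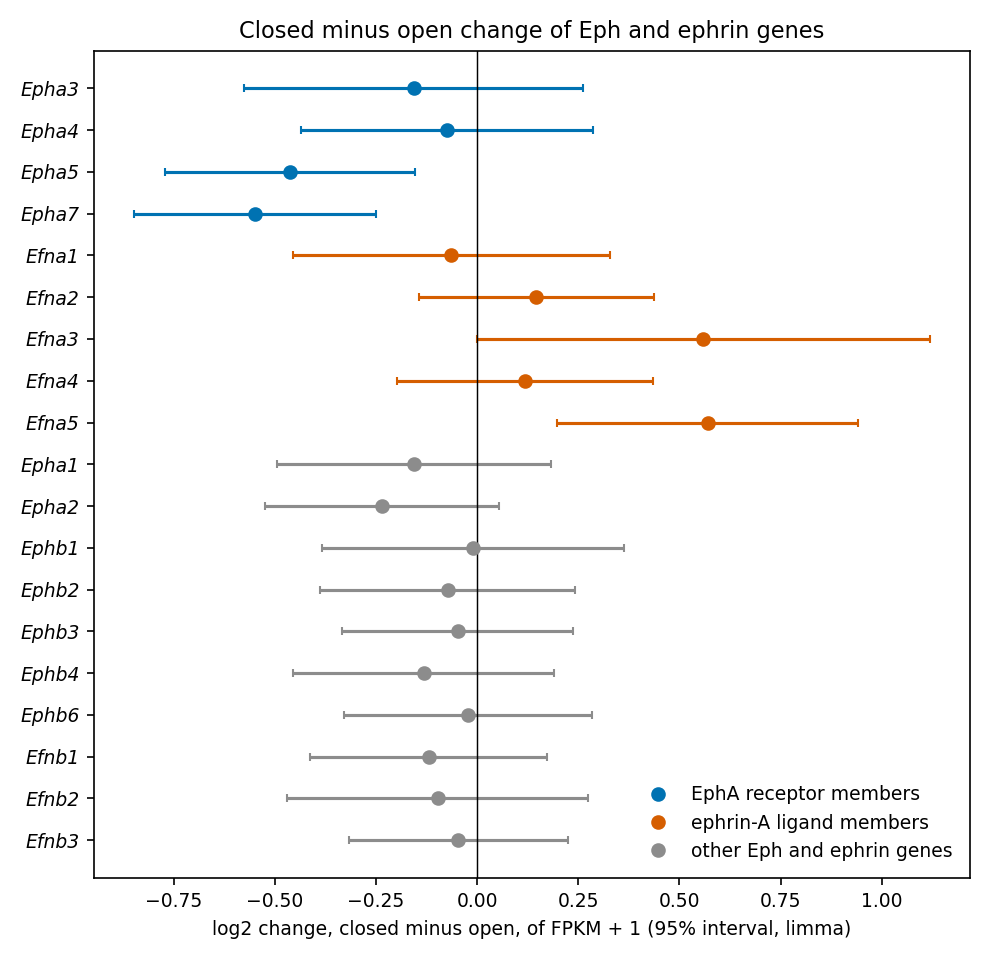
Log2 change of FPKM + 1, closed minus open, with 95% limma intervals (horizontal axis) for the 4 receptors (blue), the 5 ligands (orange) and 10 other Eph and ephrin genes at or above the floor (grey). The intervals are from the fit without a block. Those of Epha5 and Epha7 lie below 0 and that of Efna5 above 0, while none of these genes passed the test over all rows. With the mouse as a block, which is not drawn, the interval of Efna3 also lay above 0 (0.17 to 0.95). Scaling to mature neuron markers, not drawn here, turned Efna2 to -0.17 and Efna4 to -0.19.

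Set against each other, the receptors lay below 0 and most of the ligands above it. All 4 receptors had a log2 change below 0 (median -0.31), and 4 of 5 ligands one above 0 (median 0.15), while the median of all rows tested was -0.0095 and 54% of them were below 0. Under scaling to mature neuron markers, which moved the median of all rows to -0.32, Efna2 and Efna4 turned to -0.17 and -0.19, whereas the receptors stayed below 0 and Efna3 and Efna5 above it. This scaling adds 1 shift to all genes of a library, so relative to the median of all rows the changes were by construction the same with and without it: -0.45 for Epha5, -0.54 for Epha7, 0.57 for Efna3, 0.58 for Efna5, 0.16 for Efna2 and 0.13 for Efna4. The members were chosen with earlier results of these data known, so no p is given for a group of them.

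Summed over the 4 receptors, the closed libraries of mice 1, 2 and 3 held 5.83, 7.82 and 7.59 FPKM and the open ones 8.73, 10.2 and 11.3 FPKM. The sides did not overlap, and the means were 7.08 ± 1.09 closed and 10.1 ± 1.27 open (SD, n = 3 each). Epha5 and Epha7 accounted for 59.4% ± 3.83 of the receptor sum on the closed side and 67.3% ± 2.10 on the open side. Epha3 and Epha4 together measured 2.91 ± 0.691 FPKM closed and 3.31 ± 0.614 FPKM open, with overlap. Epha5 and Epha7 together measured 4.18 ± 0.398 and 6.76 ± 0.656 FPKM without overlap, so the receptor sum adds no evidence to those genes.

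The 5 ligands summed to 228.5, 179.7 and 293.9 FPKM in the closed and 190.1, 138.1 and 161.8 FPKM in the open libraries of mice 1, 2 and 3. These sums overlapped, though each mouse was higher on its closed side, and Efna3 made up 71.2% to 82.9% of them. Without Efna3 the ligand sum was 48.6 ± 4.41 FPKM closed and 40.3 ± 2.20 FPKM open, with no overlap. Of the ligands in that sum only Efna5 (20.9 and 13.7 FPKM) did not overlap between the sides, so the sum adds no evidence to it. The ratio of ligand to receptor sums was 33.6 ± 9.21 on the closed and 16.5 ± 4.54 on the open side, with the closed value above the open one in each of the 3 mice. That direction follows from the 2 sums in each mouse and adds no evidence to them. The ratio covers the members only. The receptor sum leaves out Epha1 and Epha2, whose means over all libraries (4.32 and 4.48 FPKM) each lay above that of every member receptor.

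The ratio of Efna5 to Epha5, the ligand and receptor of the same number, was 8.90, 7.98 and 10.7 in the closed libraries and 4.17, 3.39 and 4.16 in the open ones. The closed ratio exceeded the open ratio 2.36-fold on the means (9.21 ± 1.41 against 3.90 ± 0.444, SD, n = 3 each). The ratio of Efna5 to Epha7 was 9.76, 10.8 and 12.4 closed and 4.66, 3.57 and 4.47 open, a 2.59-fold difference of the means. That neither ratio overlapped follows from the separate values of the 3 genes and adds no evidence to them. A ratio within a library does not depend on a common scaling of that library.

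**Figure D3:**
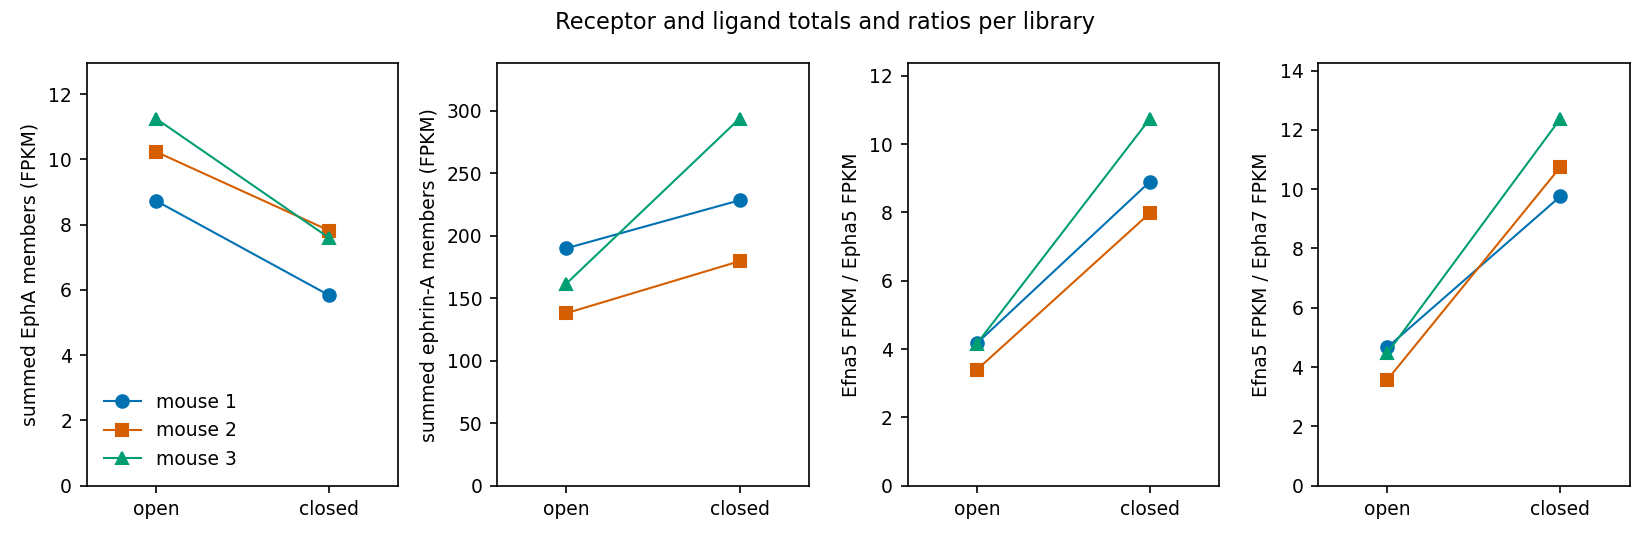
From left to right, summed FPKM of the 4 receptors, summed FPKM of the 5 ligands, and the ratios of Efna5 to Epha5 and of Efna5 to Epha7, on the open and the closed side with 1 line per mouse (axes start at 0). The receptor sums lie lower and, as the values of the 3 genes fix, both ratios higher on the closed side without overlap, while the ligand sums overlap.

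The promoter windows of the 3 genes whose sides did not overlap are shown because Epha5 and Epha7 lay lower together and Efna5 lay opposite to them. They are RefSeq sequences of build GRCm38.p6, from 250 bases before to 50 after the annotated start, and all 9 genes had a window. The deposited values were made on mm9, so these coordinates are not those of the deposited processing. Epha5 is on the minus strand of chromosome 5 (window chr5:84417333-84417632), Epha7 on the plus strand of chromosome 4 (chr4:28812881-28813180, the first of 2 listed starts) and Efna5 on the minus strand of chromosome 17 (chr17:62881268-62881567). Capitals mark a match to a searched motif.
Epha5: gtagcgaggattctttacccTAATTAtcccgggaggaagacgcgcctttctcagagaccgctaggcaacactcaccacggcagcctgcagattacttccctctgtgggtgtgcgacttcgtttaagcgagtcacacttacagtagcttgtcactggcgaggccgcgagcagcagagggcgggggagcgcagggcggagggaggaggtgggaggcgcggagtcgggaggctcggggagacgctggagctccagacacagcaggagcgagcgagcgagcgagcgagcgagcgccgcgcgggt
Epha7: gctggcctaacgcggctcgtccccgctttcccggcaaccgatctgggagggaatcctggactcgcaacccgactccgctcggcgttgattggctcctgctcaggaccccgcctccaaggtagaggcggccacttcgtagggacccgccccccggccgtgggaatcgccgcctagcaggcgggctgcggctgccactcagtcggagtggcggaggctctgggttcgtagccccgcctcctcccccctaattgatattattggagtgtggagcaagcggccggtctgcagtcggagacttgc
Efna5: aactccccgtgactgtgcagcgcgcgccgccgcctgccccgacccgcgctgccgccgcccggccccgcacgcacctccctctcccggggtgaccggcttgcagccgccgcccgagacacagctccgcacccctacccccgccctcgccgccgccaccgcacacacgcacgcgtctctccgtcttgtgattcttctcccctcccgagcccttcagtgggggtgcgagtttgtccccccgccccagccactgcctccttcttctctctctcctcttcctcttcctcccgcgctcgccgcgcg
Motifs searched on both strands were the full cAMP response element TGACGTCA, the short form TGACG (part of the full element) and the homeodomain core TAATTA. They occurred in 1.79%, 20.8% and 5.29% of the 32851 windows of that table. The Epha5 window held 1 TAATTA, at bases 21 to 26 of the window, and the Epha7 and Efna5 windows held none of the 3 motifs. Of the other members, Efna1 held 1 TAATTA and Epha4 1 TGACG. The content of G and C was 64.3% for Epha5, 67.0% for Epha7 and 73.3% for Efna5, against a median of 52.7% over all windows. The other members also lay above that median, from 55.7% for Efna4 to 74.7% for Efna2.

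By position the genes fall on 7 chromosomes in the GRCm38 annotation. Efna1, Efna3 and Efna4 lie within chromosome 3 on the same strand (chr3:89271733-89281142, chr3:89313899-89322965 and chr3:89333390-89338028). Their log2 changes were -0.064, 0.56 and 0.12. The limma intervals overlapped, at -0.46 to 0.33, -0.0016 to 1.12 and -0.20 to 0.44. Whether the changes of these neighbours differ from each other was not tested. The loci of Epha5 and Efna5 span 362.6 and 277.1 kb, against 9.07 kb for Efna3.

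Of 13 other Eph and ephrin genes 10 passed the floor and none was called, in either direction (0 also at an unadjusted limma p under 0.05, with and without the block). Epha6, Epha8 and Epha10 were below the floor. All 10 had a log2 change below 0, from -0.24 to -0.010 with a median of -0.085, where 54% of all rows were below 0, although Ephb1 turned above 0 with quantile normalization or median centring, and Ephb1 and Ephb6 with small RNA rows left out. Epha2, an EphA receptor of epithelia, was the 1 gene of these 10 whose sides did not overlap, beside 2.09% of all rows that were lower without overlap, at 3.50, 4.25 and 4.36 FPKM closed and 5.18, 4.56 and 5.01 FPKM open (log2 change -0.24, SE 0.13). The most abundant were Efnb1 (11.2 ± 1.22 FPKM closed, 12.2 ± 1.37 open), Ephb4 (10.6 ± 1.95 and 11.6 ± 0.312) and Efnb2 (10.4 ± 1.57 and 11.3 ± 2.14), the last pair known as a receptor and ligand of blood vessels, and each overlapped between the sides.

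Of 35 genes that act downstream of Eph receptors or process ephrins, none was called and 0 were under 0.05 unadjusted by limma, with and without the block. Their log2 changes ran from -0.23 to 0.18 with a median of -0.032, and 27 were below 0, a count that ranged from 20 to 35 under the other scalings. Sides did not overlap for Arhgef15, an exchange factor bound by Eph receptors (1.28 ± 0.0655 FPKM closed, 1.50 ± 0.0603 open), and for Vav3, an exchange factor of the Vav family (1.16 ± 0.0114 and 1.45 ± 0.156). Both lay lower on the closed side, not past the test, as 2 of 35 genes beside 2.09% of all rows.

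Among 9 genes of olfactory axon sorting, none was called over all rows, 3 were lower and 1 higher at an unadjusted limma p under 0.05 (beside 0.866% and 0.588% of all rows), and the median log2 change was -0.050. Kirrel2 had a log2 change of -1.45 (SE 0.18, limma adjusted p = 0.0592), Sema7a one of -1.11 (SE 0.21) and Kirrel3 one of 0.80 (SE 0.16), each without overlap between the sides, as 2 lower and 1 higher gene beside 2.09% and 1.28% of all rows. Kirrel2 was 2.77-fold higher on the open side, where Epha5 was 1.54-fold and Epha7 1.71-fold higher. Kirrel3 was 1.80-fold higher on the closed side, where Efna5 was 1.53-fold and Efna3 1.51-fold higher.

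Likeness to a member was measured as the mean absolute difference between log2(FPKM + 1) profiles over the 6 libraries, each centred on its own mean, among 13550 protein-coding genes. Closest to Epha5 were Epha7 (0.058), the small GTPase Gem (0.061) and Rab37 (0.066). Closest to Epha7 were the synaptotagmin Syt4 (0.035), Epha5 (0.058) and the retinoic acid hydroxylase Cyp26b1 (0.060). Closest to Efna5 were Spef2, a gene of sperm and cilia (0.080), the calcineurin subunit Ppp3ca (0.094) and the serine protease Prss33 (0.098). All of these profiles share the same 6 libraries. Epha3 lay at 0.15 from Epha5. Of the other members, Efna2 lay closest to Efna5 (0.237), followed by Efna3 (0.249). Many genes outside the set lay closer in each case.

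Marker lists of cell types varied between the libraries as well. The 8 mature neuron markers summed to 5591, 5145 and 5865 FPKM in the closed and 5458, 3905 and 4560 FPKM in the open libraries of mice 1, 2 and 3, with 8 of 8 above 0 in log2 change, a median of 0.29 and none at 0 FPKM. Efna3 and Efna5 were higher on the closed side in each mouse, as that sum was. In mouse 1, 3 of the 8 markers were higher on the closed side and 5 lower, among the latter Omp at 1916 FPKM closed and 2212 FPKM open. The 6 immature neuron markers summed to between 879.1 and 971.9 FPKM closed and between 779.3 and 1075 FPKM open (median log2 change 0.034). The 6 ensheathing glia markers summed to 273.6 to 363.3 FPKM closed and 312.0 to 629.4 FPKM open, 6 of 6 below 0 with a median of -0.36. The 6 endothelial markers summed to 24.2 to 44.3 FPKM closed and 32.5 to 41.4 FPKM open, 5 of 6 below 0 with a median of -0.13, and the 6 fibroblast markers to 3371 to 4722 and 2335 to 5599 FPKM, 4 of 6 below 0. Supporting cell markers summed to 3497, 3126 and 3372 FPKM closed in mice 1, 2 and 3. Their open sums were 3522, 4798 and 3804 FPKM, and 5 of 6 lay below 0. Macrophage markers summed to 80.3, 77.9 and 63.3 FPKM closed and 81.8, 93.0 and 76.2 FPKM open, 6 of 6 below 0. Both sums were lower on the closed side in each mouse, as Epha3, Epha5 and Epha7 were. Apart from mature neurons, the sums of the other lists differed in direction between mice. Basal and progenitor markers summed to 137.4 to 184.6 FPKM closed and 137.7 to 171.0 FPKM open, 5 of 8 above 0. These directions are on the deposited scale, and scaling to mature neuron markers put all immature neuron, basal, supporting cell, endothelial and fibroblast markers below 0. None of these markers was called by limma, and their part in the member values was not tested.

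**Figure D4:**
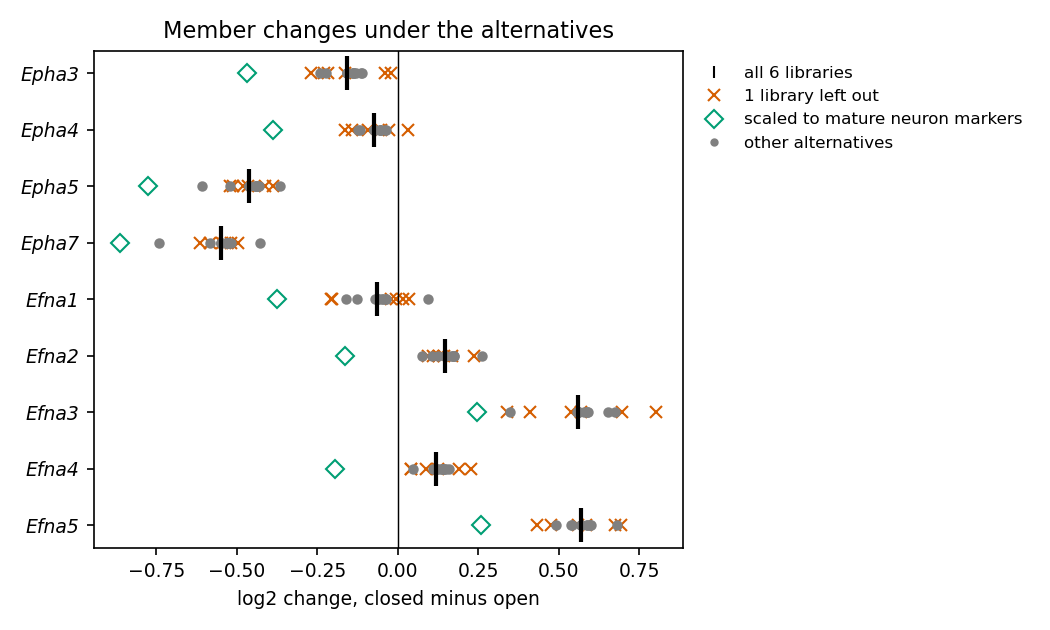
Log2 change of each gene, closed minus open, with all 6 libraries (black bar), with 1 library left out (crosses), after scaling to mature neuron markers (diamonds) and under the other alternatives (grey dots). Epha3, Epha5 and Epha7 stay below 0 and Efna3 and Efna5 above 0 throughout, while Epha4, Efna1, Efna2 and Efna4 cross 0 under 1 to 3 alternatives each.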

How the data were processed

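The 6 expression columns were used, 1 per library, as FPKM deposited by the authors. Per the submitters' processing notes Cufflinks and mm9 were used, with no version stated. No source used here gives the aligner, annotation or strand setting. Reads per library are a count deposited by the authors, the aligned share is a fraction deposited by the authors and printed as a percent, the RNA integrity is a deposited score, and the 28S to 18S ratio is a deposited ratio that was not analysed. Counting error per gene is unknown.

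Rows whose mean reached 1 FPKM (14788 of 24315) were fitted as log2(FPKM + 1) with limma 3.58.1 in R 4.3.3 (eBayes with a variance trend), without a block. A deposited sheet states that same-numbered libraries come from 1 mouse, so the fit with the mouse as a block is the paired alternative. After subtraction of the side means, closed and open libraries of mice 1, 2 and 3 correlated across genes at 0.15, 0.076 and 0.21, and libraries of different mice at -0.17 to 0.0082. The fit was tested on simulated data. Members and lists were chosen with earlier results of these data known. Named were all members, genes of the 3 pathway lists (other Eph and ephrin genes, Eph signalling, axon sorting) without overlap between sides, the 3 most abundant other Eph and ephrin genes, and the 3 closest profiles to Epha5, Epha7 and Efna5. Epha1, Epha6, Epha8, Epha10, Ephb1, Ephb6, Pcdh10, Omp and the antisense genes lay outside that rule, and their naming followed a look at the values. Alternatives were other pseudocounts, floors, scalings, variance models, the block, and left-out libraries and mice.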

Additional observations from a re-analysis of the deposited data

How the results depend on the processing

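No member passed the limma test over all rows under any of 20 alternatives, of which 15 were planned and 5 were chosen after seeing the data (scaling to mature neuron markers, the block without small RNA rows, and the block without each mouse). Epha3, Epha5, Epha7, Efna3 and Efna5 kept their direction throughout: Epha3 ranged from -0.47 to -0.023, Epha5 from -0.77 to -0.37, Epha7 from -0.86 to -0.43, Efna3 from 0.25 to 0.80 and Efna5 from 0.26 to 0.69, with adjusted p from 0.467 to 1. Direction turned for Epha4 (0.033) and Efna1 (0.033) without closed replicate 1, for Efna1 without open replicate 2 (0.016) and with the block without mouse 1 (0.093), and for Efna2 (-0.17) and Efna4 (-0.19) under scaling to mature neuron markers. With 1 library left out, Epha4 ranged from -0.16 to 0.033, Efna1 from -0.21 to 0.033, Efna2 from 0.093 to 0.24 and Efna4 from 0.040 to 0.23. The marker scaling lowered both log2 ratios of sums by its own construction, receptors from -0.51 to -0.98 and ligands from 0.50 to 0.18. It shifts log2(FPKM + 1) and not FPKM, so the low receptor values moved further than under a common factor on FPKM. The mean receptor minus ligand change, -0.58, ranged from -0.72 to -0.49 with 1 library left out. A floor of 5 FPKM removed Efna2 and all receptors, so it gave no value for them or for the sums. The count of rows past the test, 7, was 5 with the replicate block, 4 with no floor, 4 to 12 with 1 library left out (4 without closed replicate 2, 12 without closed replicate 3), 115 when scaled to mature neuron markers, 4 with the block and no small RNA rows, and 11, 4 and 23 with the block without mouse 1, 2 and 3. The cause was not tested. Of the axon sorting genes 3 were called under the marker scaling (Kirrel2, Pcdh10 and Sema7a), and 1, Kirrel2, with the block and no small RNA rows and with the block without mouse 3. The block changed no call of a member. Precision rests on 3 libraries per side, and the receptors, at 1.05 to 3.83 FPKM, lie near the floor.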
